A study of Mus musculus with 24 samples.

Results

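The genes described here are the named small nucleolar RNAs and small Cajal body RNAs of the mouse that were counted in preimplantation embryos. They were chosen by symbol (Snora, Snord or Scarna followed by a number) and by a count of at least 50 summed over the 24 libraries. Of 150 annotated genes with such a symbol, among 55471 genes counted in all, 81 had no count, 69 had at least 1, and 40 reached the threshold. These 40 comprised 12 H/ACA RNAs (Snora), 25 C/D RNAs (Snord) and 3 Cajal body RNAs (Scarna), and they held 16233 counts in total. Many of the 81 genes with no count, such as Snora75 in Ncl and Snord47 in Gas5, lie wholly within an exon of a host gene. Read pairs touching exons of several genes were not counted, so a missing count does not show that such an RNA was absent. Since total abundance chose the members, their abundance is given as a description only.

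RNA with poly(A) tails was copied from pools of 10 embryos of the hybrid strain B6D2F1 and sequenced in 24 libraries, with 4 libraries in each of 6 groups. Wild-type embryos, whose titles carry the letters NC, were compared with embryos given Cas9 protein and 3 guide RNAs against Ttf1 (Ttf1 knockout) or against Zfp622 (Zfp622 knockout). Embryos of each genotype were taken as late 2-cell embryos (L2C) or as morulae. Ttf1 encodes the factor that ends transcription by RNA polymerase I at the ribosomal RNA genes, and the yeast counterpart of Zfp622 is a factor of late assembly of the large ribosomal subunit. Embryos edited in this way are populations of alleles rather than a line, and the labels do not say whether wild-type zygotes were injected.

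Small nucleolar RNAs guide chemical modification of other RNAs, mainly ribosomal RNA. C/D RNAs carry a C box near the 5′ end and a D box near the 3′ end, pair with a target and direct methylation of its ribose by fibrillarin. H/ACA RNAs fold into hairpins, end shortly after the triplet ACA and direct conversion of uridine to pseudouridine by dyskerin. Cajal body RNAs do the same for the small nuclear RNAs of the spliceosome, and a few family members act in cutting of the ribosomal RNA precursor instead. In mammals most of these RNAs are cut out of introns of host genes, many of which encode ribosomal proteins and translation factors, and a smaller number have promoters of their own.

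Mature members have no poly(A) tail, while the libraries were primed with oligo-dT. The counts may therefore come from mature RNA, from trimmed intermediates or from unspliced host RNA, and these sources cannot be told apart. Fewer cells with a transcript and less transcript per cell cannot be told apart in pooled embryos either.

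Several members that lead the results are printed below 5′ to 3′, as the gene models of the GENCODE M21 annotation give them on build GRCm38, so that their letters can be read beside their values. Capitals mark the letters TGATGA (C box) and CTGA (D box) where found, or ACA before exactly 3 last bases. Snora57 (148 bases, chr19:8888538-8888685, minus strand), Snora21 (137 bases, chr11:97781639-97781775, minus strand) and Snora47 (138 bases, chr13:95330600-95330737, plus strand) are H/ACA RNAs.
Snora57: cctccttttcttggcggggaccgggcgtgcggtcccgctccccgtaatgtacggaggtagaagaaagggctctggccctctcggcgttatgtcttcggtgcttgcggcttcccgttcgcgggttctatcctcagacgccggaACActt
Snora21: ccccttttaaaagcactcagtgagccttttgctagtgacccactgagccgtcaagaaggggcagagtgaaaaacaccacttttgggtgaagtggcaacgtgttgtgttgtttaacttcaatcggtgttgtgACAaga
Snora47: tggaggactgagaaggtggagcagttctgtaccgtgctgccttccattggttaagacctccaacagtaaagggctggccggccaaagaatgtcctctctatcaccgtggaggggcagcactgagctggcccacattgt
Snord104 (70 bases, chr11:106500993-106501062, plus strand), Snord118 (135 bases, chr11:69073427-69073561, plus strand) and Snord43 (chr15:80082847-80082954, minus strand) are named as C/D RNAs.
Snord104: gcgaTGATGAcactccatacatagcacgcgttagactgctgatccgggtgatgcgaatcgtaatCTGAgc
Snord118: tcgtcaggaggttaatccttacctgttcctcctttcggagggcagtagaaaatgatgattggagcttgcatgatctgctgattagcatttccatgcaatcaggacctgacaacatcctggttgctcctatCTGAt
Snord43: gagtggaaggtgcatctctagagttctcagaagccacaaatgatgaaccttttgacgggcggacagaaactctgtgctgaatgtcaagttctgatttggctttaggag
The 3 members that share the noncoding host 2410006H16Rik on chromosome 11, plus strand, are printed because they lie in neighbouring introns. They are Snord49b (chr11:62603079-62603150), Snord49a (chr11:62603450-62603521) and Snord65 (chr11:62604515-62604586), each of 72 bases.
Snord49b: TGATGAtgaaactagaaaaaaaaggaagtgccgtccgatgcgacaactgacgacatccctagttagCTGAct
Snord49a: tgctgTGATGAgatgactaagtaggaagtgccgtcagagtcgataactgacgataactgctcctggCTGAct
Snord65: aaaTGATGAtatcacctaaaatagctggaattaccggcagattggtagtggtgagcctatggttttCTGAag
The C box letters within the first 20 bases together with the D box letters within the last 15 bases were found in 14 of 25 C/D members (56%), and in 27 of 39997 windows of 87 bases from the middle of protein-coding transcripts (0.0675%). ACA before exactly 3 last bases was found in 10 of 12 H/ACA members (83.3%) and in 2.07% of windows of 132 bases. Snord118 held the D box letters but not the C box letters in these windows. Snord43 and Snora47 did not hold their class's letters there, and nothing follows from either about the RNAs. The gene model of Snord43 is annotated as a miRNA gene despite its symbol. Only the transcript strand was searched.

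Total counts ran from 10538723 to 17807596 per library, of which the 40 members took 467 to 957, or 34.5 to 74.2 CPM of the unscaled total. The lowest and the highest share belonged to the same genotype: Zfp622 knockout L2C library 1 had 34.5 and Zfp622 knockout morula library 4 had 74.2. The lane number of the 8 Ttf1 knockout libraries differs from that of the other 16, so lane and Ttf1 knockout cannot be told apart. Levels below are CPM (counts relative to library totals, with all 24 libraries scaled together by TMM). Each error is an SD over 4 libraries. The test is edgeR's quasi-likelihood test with Benjamini-Hochberg adjustment across the genes kept, at a threshold of 0.05. Counts at an unadjusted p under 0.05, or by DESeq2, come without the share over all genes and are descriptions only. Ttf1 stood at 77.4, 73.9, 68 and 76.5 CPM in wild-type L2C and at 26.9, 22.4, 31.7 and 27.4 in Ttf1 knockout L2C, and at 50.7 to 54 against 28.9 to 32.9 at morula. Zfp622 stood at 151 to 167 CPM in wild-type L2C and at 52.1, 86.5, 42.8 and 60.4 in its knockout, and at 58.6 to 72.7 against 21.5, 20.5, 24.2 and 7.45 at morula. Each targeted transcript was thus lower in every library of its own knockout, and the lowest Zfp622 level belonged to morula library 4.

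The abundance of the members was very uneven. Snora57 held 27.2% of all member counts, and together with Snord104 and Snord118 it held 50.4%, while 25 of 40 members had fewer than 240 counts in all, or 10 per library. Per 100 bases of gene length, Snord104 led with 3454 counts, followed by Snora57 with 2980, Snord118 with 1000, Snora78 with 630 and Snora21 with 543. Of these 5, Snora78 and Snora21 lie in host introns, and Snora57, Snord104 and Snord118 have no gene around them on their own strand. By class, H/ACA members held 48% of the counts, C/D members 49.2% and Cajal body members 2.85%. At the threshold, Snord13, Snord91a and Snord83b (68 each) and Snord53 (61) were just inside, and Snord110 (49), Snord73a and Snord93 (48 each) just outside.

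Among the 40 members, 33 lie inside an intron of a gene on the same strand, Snord42b lies partly in an exon of the ribosomal protein gene Rpl23a, and 6 have no such host (Snora57, Snord104, Snord118, Snora17, Scarna2 and Snord13). Candidates lying wholly in a host exon could hardly be counted, so these numbers do not describe where such RNAs lie in general. The 34 hosted members share 29 hosts, 26 members having protein-coding and 8 noncoding hosts, and 11 members lie in 9 ribosomal protein genes. The distance to the nearest host exon had a median of 93 bases, from 31 for Snora21 in Rpl23 to 3656 for Snora47 in Zbed3. Counting ignored strand, and 9 members overlap a further gene, among them Snora57 (inside Lbhd1, on the other strand), Snora78 (Rps2), Scarna13 (Mir3069) and Snora19 (mmu-mir-3084-1). Reads of such a gene and of the member cannot be told apart.

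**Figure D1:**
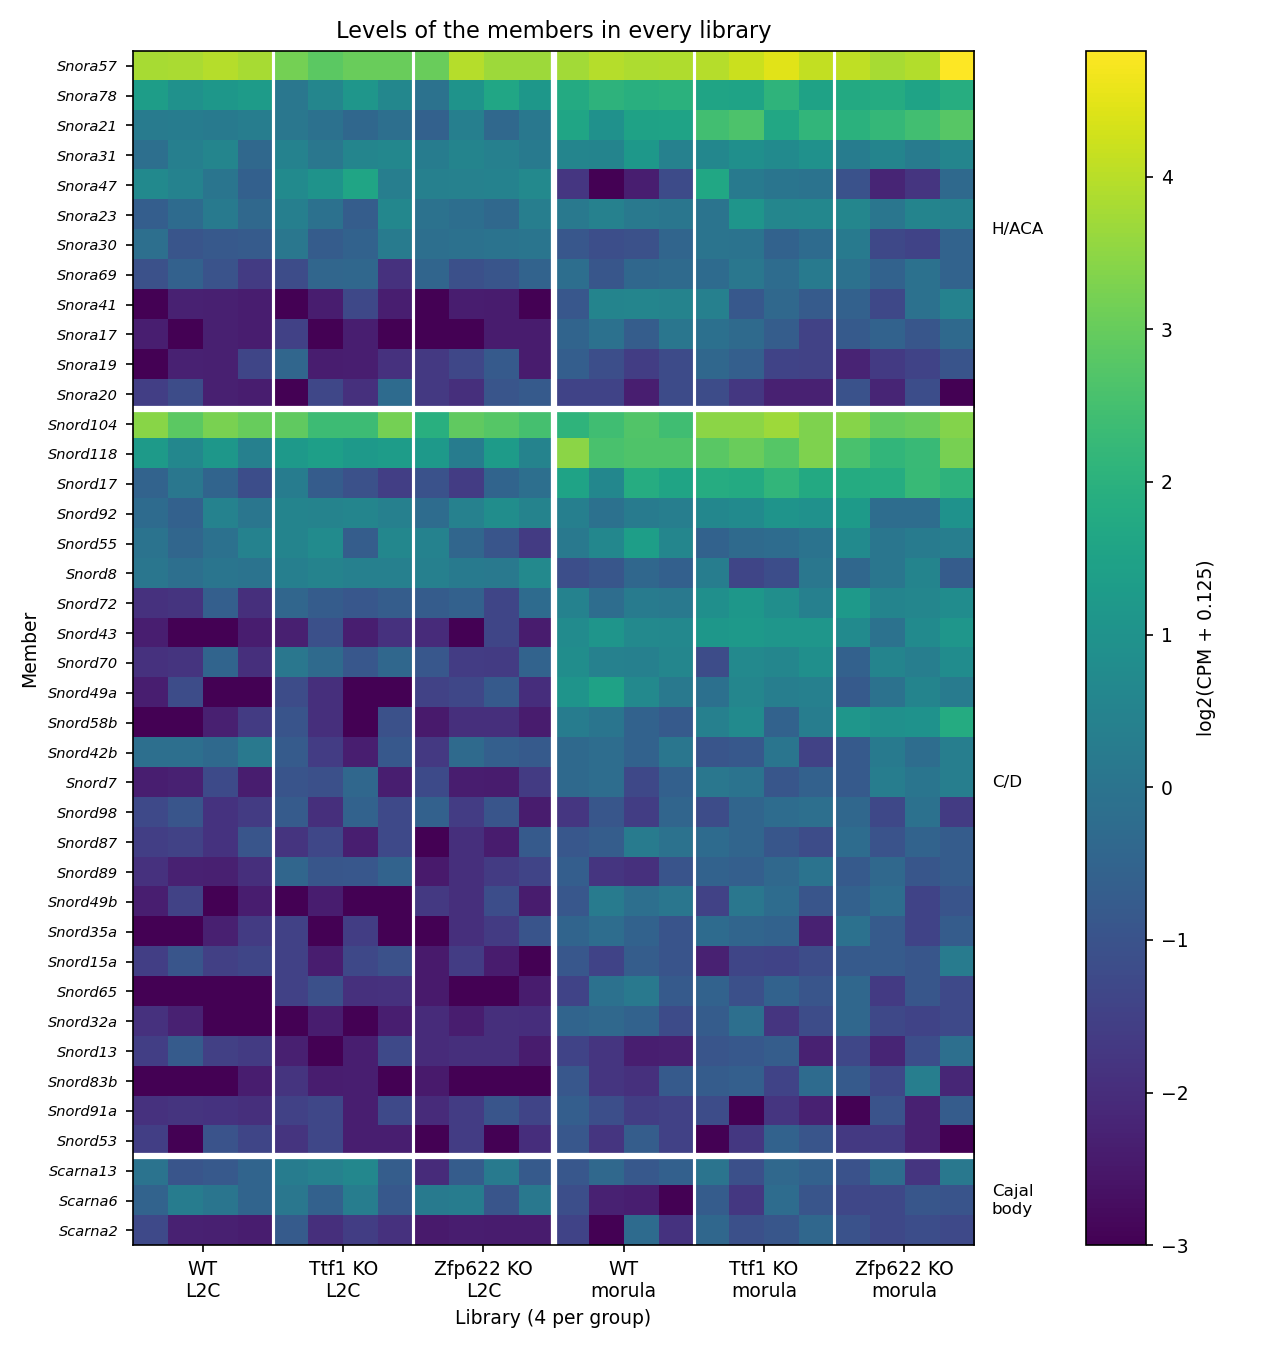
Heat map of the 40 members (rows, by class and then by summed count) in the 24 libraries (columns, 4 per group), coloured by log2(CPM + 0.125). The rows of Snora57 and Snord104 are bright in every library, most C/D rows brighten from L2C to morula, and Snord65 is dark in all 4 wild-type L2C libraries.

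Summed by class, the wild-type level of C/D members was 17.1 ± 2.01 CPM at L2C and 31.5 ± 2.29 at morula (SD, n = 4). The H/ACA members went from 21.6 ± 1.1 to 26.8 ± 1.32, and the Cajal body members from 1.49 ± 0.201 to 0.911 ± 0.241. Without Snora57 the H/ACA sum was 7.29 ± 0.601 at L2C and 12.4 ± 0.699 at morula, and without Snord104 and Snord118 the C/D sum was 6.63 ± 0.497 and 18.9 ± 0.94. Each of these sums is a description and carries no test.

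Between wild-type L2C and morula some members rose, led by Snord43, Snord49a and Snora41, and others fell, led by Snora47 and Scarna6. Of 22 members tested, 10 rose, 3 fell and 9 did not pass, so that 59.1% were called against 84% of all 18864 genes tested (37.9% higher and 46.1% lower). The median log2 fold change of the members was 0.70, and that of all genes was -0.30. Where libraries were scaled by total counts only, the median of all genes moved to -0.87, 9 members rose and 5 fell, and higher calls among all genes dropped from 45.1% to 34.9% of calls. The 18 other members had too few counts to be tested, and a member with counts at 1 stage only could pass that filter solely by differing. Of the 10 that rose, 7 had too few counts for the fits at L2C (2 to 33 in wild type) and were tested only through morula, where they were high, so the count of rises over falls supports nothing.

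The largest rises belonged to Snord43 (5.17), Snord49a in the noncoding 2410006H16Rik (4.15) and Snora41 (4.12). Snord43, which lies in the ribosomal protein gene Rpl3, was at 0.0716, 0, 0 and 0.066 CPM in the wild-type L2C libraries and at 1.59, 1.98, 1.49 and 1.45 at morula. It was thus almost uncounted at L2C (2 counts in all) and present in every morula library (83 counts), a ratio of 44.7 with a 95% exact counting interval of 12 to 375 (log2 fold change 5.17, SE 0.64, adjusted p = 1.47e-08). Snora41, in an intron of the elongation factor gene Eef1b2, had 3 counts at L2C and 57 at morula, a ratio of 20.5 with an interval of 6.66 to 102 (adjusted p = 8.68e-06). These intervals cover counting error only. Snord43, Snord49a and Snora41 were tested only through morula, where they were high, and are named as the largest rises. Their p-values and ratios are therefore given as descriptions.

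Snord118, which acts in processing of the precursor of the large subunit's RNAs and lies 134 bases downstream of Tmem107, was the most counted member that rose. Its levels were 2.29, 1.42, 2.09 and 1.19 CPM at L2C and 10.9, 5.79, 6.18 and 6.26 at morula, with no overlap and with morula library 1 well above the other 3. The log2 fold change was 2.05 (SE 0.29, adjusted p = 1.71e-07), while Tmem107 fell from 22.2 ± 2.06 to 16.6 ± 3.93 CPM (-0.42, adjusted p = 0.0108). Snord17, in the sorting nexin gene Snx5, rose from 0.612 ± 0.254 to 2.62 ± 0.872 CPM (2.11, SE 0.39). Snora21 in Rpl23 rose from 1.09 ± 0.0344 to 2.55 ± 0.497 (1.22, SE 0.29), and Snora78 in the noncoding gene Snhg9 from 2.16 ± 0.273 to 3.75 ± 0.303 (0.79, SE 0.28). The call of Snora78 was lost when libraries were scaled by total counts (0.21, adjusted p = 0.48) or without wild-type L2C library 4 and morula libraries 3 and 4, whose names hold a second index (0.80, adjusted p = 0.0599). The other 3 that rose were Snord58b in Rpl17 (3.22), Snord70 in Nop58, the gene of a core C/D protein (2.39), and Snord72 in Rpl37 (2.06). Like Snord17, these 3 were tested only through morula, where they were high.

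The 3 members that fell came from different surroundings. Snord104, which guides methylation of the large subunit's RNA in humans, was at 10.7, 7.1, 9.4 and 7.86 CPM at L2C and at 4.1, 5.29, 6.4 and 5.27 at morula. Its libraries did not overlap (log2 fold change -0.73, SE 0.22, adjusted p = 0.00307). Snora47, in an intron of Zbed3, was at 1.5, 1.26, 0.895 and 0.528 CPM and then at 0.167, 0, 0.0711 and 0.305 (-2.85, SE 0.64, adjusted p = 0.000177). Scarna6, in an intron of the autophagy gene Atg16l1, was at 0.573, 1.1, 0.895 and 0.594 and then at 0.335, 0.0827, 0.0711 and 0 (-2.64, SE 0.63, adjusted p = 0.000317). Neither of these overlapped between stages, though both stood on few counts at morula, 7 and 6 in all. Scarna6 had too few counts for the fits at morula and was tested only through L2C, where it was high. Its p-value and lack of overlap are therefore given as descriptions.

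Snora57, the most counted member, was level between the stages under TMM scaling, as far as these libraries show. It stood at 13.8, 14, 15.4 and 13.9 CPM at L2C and at 13.1, 15.5, 14.3 and 14.6 at morula, with a log2 fold change of 0.01 (SE 0.19, adjusted p = 0.962). The TMM factors ran from 1.2 to 1.24 at L2C and from 0.791 to 0.843 at morula. Its counts summed to 788 at L2C and 737 at morula. Library totals ran from 10538723 to 12686381 and from 14363767 to 17807596, so relative to totals alone Snora57 was lower at morula. Lbhd1, which surrounds it on the other strand, went from 15.6 ± 1.67 to 24.7 ± 2.93 CPM and passed (0.66, adjusted p = 0.00156). The other Cajal body RNAs did not pass: Scarna13, in Snhg10, was at 0.574 ± 0.208 and 0.51 ± 0.114 CPM, and Scarna2, which guides methylation of a spliceosomal RNA and is transcribed on its own, was at 0.126 ± 0.107 and 0.279 ± 0.306 and was not tested.

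**Figure D2:**
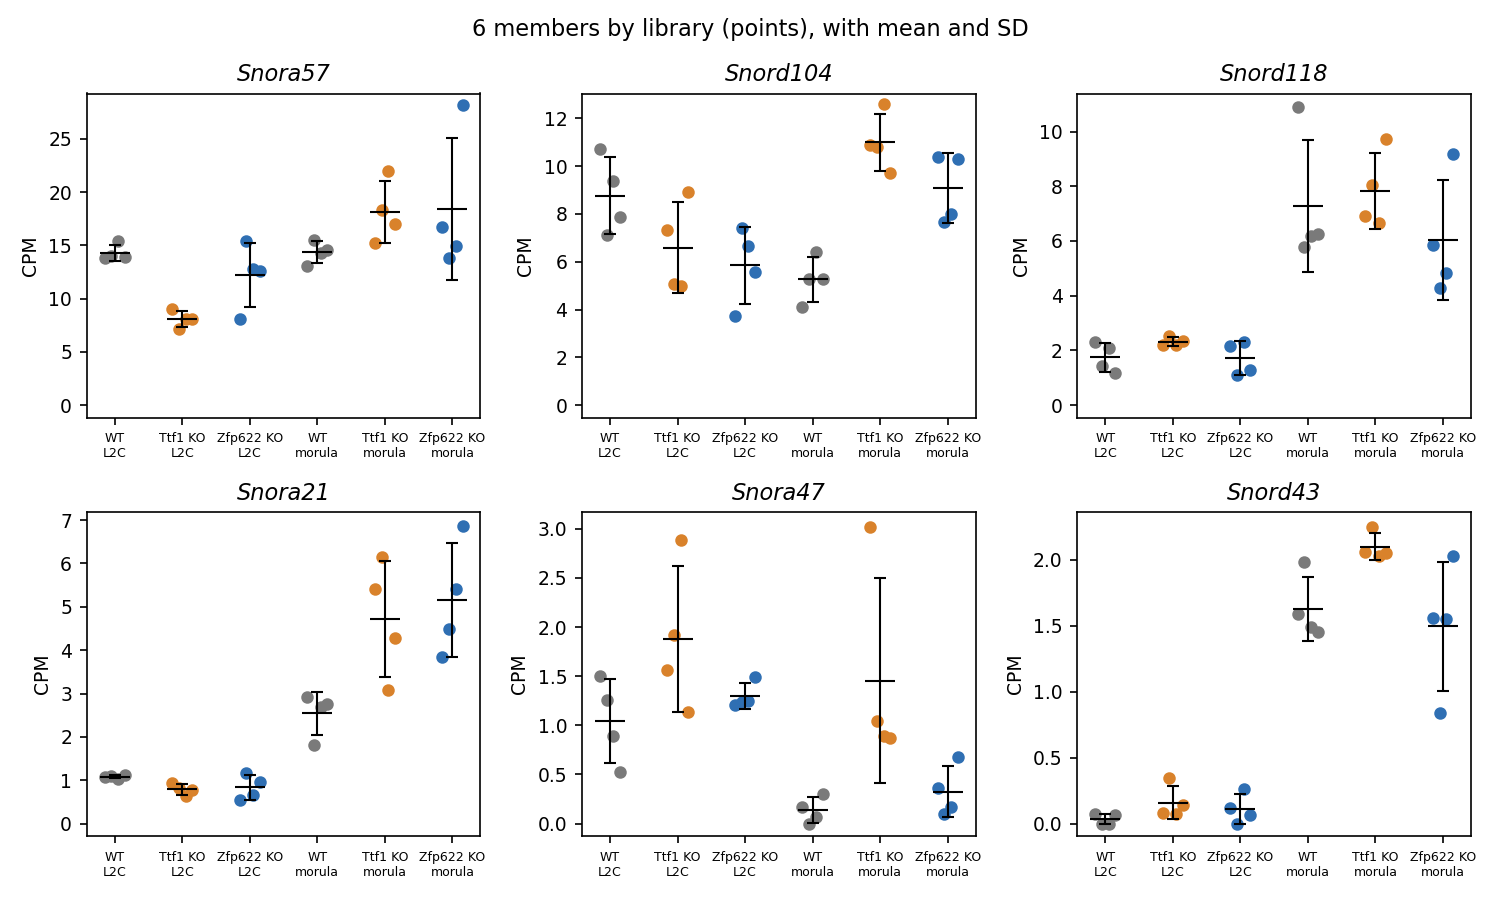
Levels in CPM (vertical axes include 0) of 6 members in the 24 libraries (points), by group, with the mean (dash) and SD (whiskers) of 4 libraries. Snord118, Snora21 and Snord43 are higher at morula than at L2C, Snora57 is low in Ttf1 knockout L2C, and Snord104 is lower in wild-type morula (5.26) than in Ttf1 knockout (11) and Zfp622 knockout morulae (9.09).

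Set beside their hosts, 11 members with a tested host were called between the stages, and 9 of them had the sign of the host's log2 fold change. Over all 19 members where both were tested, 8 of which did not pass, 16 had that sign. Across these pairs Pearson's r of the log2 fold changes was 0.76 and Spearman's rho 0.81, and without Snora47 they were 0.76 and 0.78; all pairs come from the same 8 wild-type libraries. The median log2 fold change was 0.79 for these members and 1.24 for their hosts. Snord43 and Rpl3 (5.17 and 4.55), Snora41 and Eef1b2 (4.12 and 4.02) and Snord72 and Rpl37 (2.06 and 2.01) lay close together. Of the 11 called members, 7 were tested only through morula, where they were high, so a positive sign was close to fixed. Scarna6 was tested only through L2C, where it was high, so its negative sign was close to fixed too. Hosts mostly rose too (21 of 29 higher, 5 lower), so the shared signs and the correlations are descriptions only.

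The pairs that parted did so in several ways. Zbed3, whose product belongs to the subcortical maternal complex of the egg, fell from 560 ± 33.5 to 0.669 ± 0.281 CPM (log2 fold change -9.66, SE 0.18), while Snora47 fell by 2.85 on the log2 scale. Atg16l1 stayed near 41.1 and 41.8 CPM (0.02, SE 0.13, adjusted p = 0.876) where Scarna6 fell. Rpl23a rose by 2.22 and Snord42b, which overlaps its exon, did not pass at -0.16 (SE 0.46). Snhg10 fell from 17 ± 1.52 to 3.24 ± 0.736 CPM (-2.38), whereas Scarna13 in its intron did not pass (-0.18, SE 0.54). Snhg9 did not pass (-0.53, SE 0.39) where Snora78 rose. The difference within a pair was not tested.

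**Figure D3:**
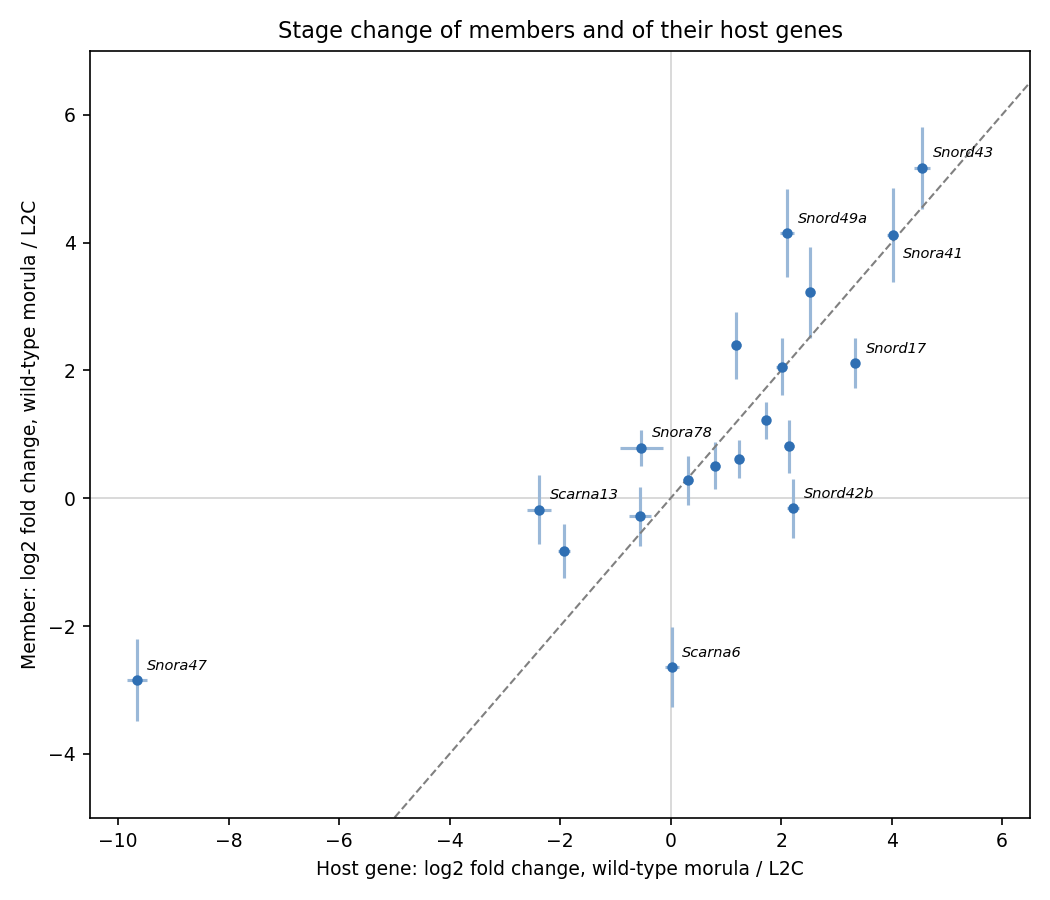
Log2 fold change of wild-type morula over L2C for 19 members (vertical axis) and their host genes (horizontal axis), with SE bars and a dashed line of equal change. Of the 19 points 9 lie within 1 of the line on the log2 scale, among them Snord43, Snora41 and Snord72, and 10 lie further away, most of all Snora47, Scarna6, Snord42b, Scarna13 and Snord49a.

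The 3 neighbours in 2410006H16Rik were scarce at L2C. Snord49a had 5 counts over the wild-type L2C libraries and 90 at morula, Snord49b 5 and 41, and Snord65 0 and 33. The host itself had 20 ± 3.72 CPM at L2C and rose to 86.2 ± 6.29 at morula (2.11 on the log2 scale, SE 0.13). Of the 3, only Snord49a had enough counts for the test across both stages. In the knockouts at morula Snord49a was at 1.13 ± 0.246 CPM (Ttf1) and 0.918 ± 0.361 (Zfp622) against 1.78 ± 0.736 in wild type and did not pass (adjusted p = 0.185 and 0.0814), while the host was at 110 ± 12.6 and 98.9 ± 12.6 against 86.2 ± 6.29 and passed in the Ttf1 knockout (0.36, adjusted p = 0.00655).

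In Ttf1 knockout L2C embryos Snora57 was lower and no other member passed. Of 14 members tested, 1 was lower and 0 higher (7.14% called), and the median log2 fold change was 0.41 against 0.00 for all genes, with 9 of 14 positive. Over all 16770 genes 1.54% were called, 0.739% higher and 0.799% lower. An unadjusted p under 0.05 was reached by 1 higher and 1 lower member, and DESeq2 called 1, both without a share over all genes to set beside them. The member that fell was Snora57, at 8.99, 7.12, 8.09 and 8.06 CPM in the Ttf1 knockout against 13.8, 14, 15.4 and 13.9 in wild type. All 4 knockout libraries lay below all 4 wild-type libraries (log2 fold change -0.83, SE 0.18, adjusted p = 0.0241). Lbhd1, on the other strand, had 22.4 ± 3.18 CPM against 15.6 ± 1.67 and did not pass (0.52, adjusted p = 0.102). Snora47 was at 1.88 ± 0.744 against 1.05 ± 0.427 CPM (0.84, adjusted p = 0.263), and Snora21 at 0.795 ± 0.126 against 1.09 ± 0.0344 (-0.45, adjusted p = 0.594), while its host Rpl23 fell (-0.27, adjusted p = 0.044). Among all 40 members, the knockout libraries lay wholly below wild type for Snora57, Snora21 and Snord42b and wholly above for Snord8, Snord89 and Snord65. The share of all genes that separated in this way was not computed, so the number of such members supports nothing. Snord8, in Chd8, was at 1.22 ± 0.0563 against 0.868 ± 0.0607 CPM and did not pass (0.48, adjusted p = 0.502). Snord89 (28 counts against 6) and Snord65 (12 against 0) were too scarce to be tested. The call of Snora57 was lost, with values from -0.84 to -0.77, on leaving out wild-type library 2, 3 or 4 (adjusted p = 0.0566, 0.0651 and 0.0623) or knockout library 2, 3 or 4 (0.0693, 0.0592 and 0.0732).

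The fall of Snora57 set the class sum at that stage. H/ACA members together were at 16.3 ± 1.22 CPM in Ttf1 knockout L2C against 21.6 ± 1.1, but at 8.22 ± 0.735 against 7.29 ± 0.601 without Snora57. Mir5136, a miRNA gene 14 bases from Snora57 on its strand, had too few counts to be tested and stood at 0.199 ± 0.148 against 0.176 ± 0.148 CPM. Compared directly with the Zfp622 knockout, Snora57 in the Ttf1 knockout did not pass (-0.60, SE 0.18, adjusted p = 0.327).

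In the Zfp622 knockout at L2C no member passed. Of 14 tested, edgeR and DESeq2 each called 0, where 0.0179% of all genes were called by edgeR, 0.00596% higher and 0.0119% lower. An unadjusted p under 0.05 was reached by 0 higher members and 1 lower, which was Snord104, at 3.74, 7.42, 6.66 and 5.56 CPM against 10.7, 7.1, 9.4 and 7.86 (log2 fold change -0.59, SE 0.23, adjusted p = 0.713), and the libraries overlapped. Snora57 was at 8.09, 15.4, 12.8 and 12.6 CPM, where library 1 reached the level of the Ttf1 knockout libraries and the other 3 lay near wild type (-0.23, adjusted p = 0.866). Between the knockouts at L2C 0 of 14 members passed in edgeR and 0 in DESeq2. Of all genes 0.0358% passed, 0.0179% in each direction, and 1 member (Snora57) had an unadjusted p under 0.05.

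By the morula stage, Ttf1 knockout embryos held more Snord104, Snora21 and Snora47 and less Snord55 than wild type. Of 20 members tested, 3 were higher and 1 lower (20% called, against 39.2% of 14865 genes, 21.3% higher and 17.9% lower), and the median log2 fold change was 0.36 against 0.04 for all genes. Snord104 was at 10.9, 10.8, 12.6 and 9.72 CPM against 4.1, 5.29, 6.4 and 5.27, so that every knockout library lay above every wild-type library (log2 fold change 1.07, SE 0.17, adjusted p = 0.000179). Snora21, which guides modification of the large subunit's RNA in humans, was at 5.4, 6.15, 3.09 and 4.27 CPM against 2.93, 1.82, 2.7 and 2.75 (0.89, SE 0.25, adjusted p = 0.0105). Its lowest knockout library stood just above the highest wild-type library, and its call was lost when wild-type libraries 3 and 4, which carry a second index number, were left out together (0.98, adjusted p = 0.0541).

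Snora47 was nearly uncounted in wild-type morulae (7 counts in all) and was at 3.02, 1.04, 0.895 and 0.869 CPM in the Ttf1 knockout against 0.167, 0, 0.0711 and 0.305 (3.32, SE 0.69, adjusted p = 0.00126). It had 14 counts in Zfp622 knockout morulae and 72 in the Ttf1 knockout, so it passed the filter on low counts only through the group where it was high and could hardly be tested without differing. Knockout library 1 stood well above the other 3, and all 4 were above wild type. Snord55 went the other way, at 0.556, 0.693, 0.733 and 0.869 CPM against 1, 1.41, 2.49 and 1.37 (-1.12, SE 0.36, adjusted p = 0.0191). It did not overlap, but its call was lost without wild-type library 3 (-0.84, adjusted p = 0.0906) or knockout library 1 (-1.01, adjusted p = 0.0521). Among members that did not pass, Snord72 was at 1.68 ± 0.369 against 1.01 ± 0.212 CPM (adjusted p = 0.072), Snord17 at 3.59 ± 0.498 against 2.62 ± 0.872, Snord118 at 7.84 ± 1.39 against 7.28 ± 2.41 and Snora57 at 18.1 ± 2.85 against 14.4 ± 0.991 (0.34, adjusted p = 0.171).

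In Zfp622 knockout morulae 3 of 20 members were higher and 0 lower (15% called, against 29.1% of all genes, 15.6% higher and 13.5% lower). An unadjusted p under 0.05 was reached by 5 higher and 1 lower member, and DESeq2 called 3. The shares of all genes at that p and by DESeq2 are not given, so these counts are descriptions only. Snord104 was at 10.4, 7.65, 8.02 and 10.3 CPM, above every wild-type library (log2 fold change 0.79, SE 0.17, adjusted p = 0.00301). Snora21 was at 3.85, 4.48, 5.4 and 6.87, also without overlap (1.02, SE 0.26, adjusted p = 0.00664). Snord58b, in the ribosomal protein gene Rpl17, was at 2.02, 1.77, 1.88 and 3.39 CPM against 1.09, 0.91, 0.569 and 0.458 (1.59, SE 0.38, adjusted p = 0.00527), and library 4 was the highest. Without wild-type libraries 3 and 4 the call of Snord58b was lost (1.16, adjusted p = 0.104). Library 4 of the knockout was also the highest for Snora57, at 28.2 CPM where the other 3 had 16.7, 13.8 and 14.9 (0.36, adjusted p = 0.173). Snora47 was at 0.325 ± 0.262 against 0.136 ± 0.132 CPM and Snord55 at 1.18 ± 0.269 against 1.57 ± 0.639, and neither passed (adjusted p = 0.318 and 0.4).

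Both knockouts were compared with the same 4 wild-type libraries, so the higher Snord104 and Snora21 in each are not independent results. In the direct comparison of the knockouts at morula 0 of 20 members passed in edgeR and 0 in DESeq2, where 0.229% of all genes passed, 0.128% higher in the Ttf1 knockout and 0.101% lower. An unadjusted p under 0.05 was reached by 1 higher and 1 lower member. The higher one was Snora47 (log2 fold change 2.15, SE 0.62, adjusted p = 0.147), and the lower one Snord58b (-1.03, SE 0.37, adjusted p = 0.234). Snord104 differed by 0.28 (SE 0.17) and Snora21 by -0.13 (SE 0.24). These p-values do not show that the knockouts act alike.

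Sums of stage markers differed between the genotypes at morula, and their part in the member results was not tested. The 8 morula markers summed to 1535 to 1623 CPM in wild-type morulae, to 742 to 965 in the Ttf1 knockout and to 751 to 1242 in the Zfp622 knockout. Nanog gave most of that difference (means of 761, 233 and 404 CPM). Pou5f1 hardly moved (130, 130 and 127), and the other morula markers had lower means in both knockouts. The 7 L2C markers summed to 27.2 to 63, 47.2 to 273 and 65.2 to 173 CPM, against 843 to 1303 in wild-type L2C. Gm5662 gave most of the difference between the genotypes at morula (means of 10.5, 62.6 and 56.8 CPM). Tcstv1 hardly moved (8.02, 8.23 and 7.1), and the other L2C markers had higher means in both knockouts. In L2C embryos the same 7 markers summed to a mean of 1132 CPM in wild type. The means were 761 (531 to 898) in the Ttf1 and 797 (589 to 1224) in the Zfp622 knockout, with ranges that overlapped wild type. Their part in the member results at L2C was not tested either. Of 10 blood markers, whose sum was 1.35 to 2.98, 6.92 to 11.2 and 4.42 to 12.3 CPM at morula, Hba-a1 gave most, and S100a8 and S100a9 were at 0 in all 3 groups. The 10 cumulus and granulosa markers summed to 17.5 to 24.2, 23.6 to 33.1 and 23.5 to 28.6 CPM, and the 7 sperm markers to at most 2.15. Amhr2 gave nearly all of the cumulus and granulosa sum (means of 20, 26.3 and 25.4 CPM).

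**Figure D4:**
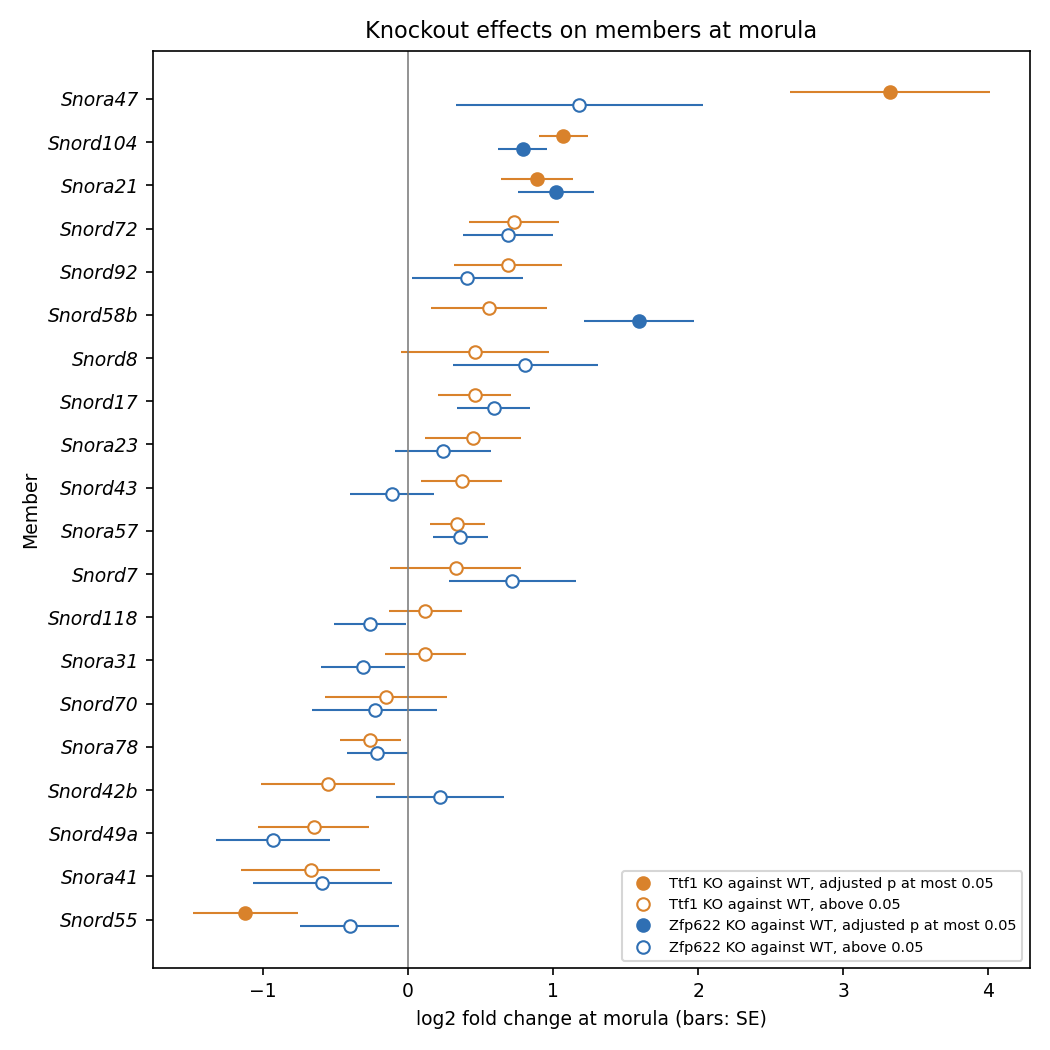
Log2 fold change at morula, with SE, of the 20 members tested, for the Ttf1 (orange) and the Zfp622 knockout (blue) against the same wild-type libraries; filled points passed at an adjusted p of 0.05. Snord104 and Snora21 are filled and right of 0 in both, Snora47 (3.32) and Snord55 (-1.12) are filled for Ttf1, and Snord58b (1.59) for Zfp622.

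The knockout effects themselves differed between the stages for a few members. For Ttf1, 4 of 22 members had a higher effect at morula than at L2C and 0 a lower one (18.2% called, against 21.2% of all genes, 12.5% higher and 8.65% lower). They were Snord104 (difference of log2 fold changes 1.48, SE 0.31, adjusted p = 0.000987), Snora57 (1.16, SE 0.27, adjusted p = 0.00272), Snora21 (1.34, SE 0.42, adjusted p = 0.0216) and Snora47 (2.48, SE 0.79, adjusted p = 0.0245). For Zfp622 they were Snord104 (1.37, SE 0.31, adjusted p = 0.00456) and Snora21 (1.39, SE 0.41, adjusted p = 0.0279), 2 of 22 (9.09%) against 10.7% of all genes, 6.45% higher and 4.21% lower. The differences for both knockouts use the same wild-type libraries, so Snord104 and Snora21 in each are not independent results. The Ttf1 call of Snora47 was lost without wild-type L2C library 1, wild-type morula library 2 or 3, or knockout morula library 1 (1.84 without the last, adjusted p = 0.0876), and that of Snora21 without knockout morula library 2 (1.18, adjusted p = 0.0546), without the wild-type libraries of a second index (1.42, adjusted p = 0.0721) or with no filter on low counts (1.31, adjusted p = 0.099). The Zfp622 call of Snora21 was lost without any of 5 libraries, namely wild-type L2C 4, wild-type morula 2, knockout L2C 1 and 3 and knockout morula 4, with adjusted p from 0.0507 to 0.0773. Snord104 fell from L2C to morula in wild type, and its means were 6.58 ± 1.9 and then 11 ± 1.2 CPM in the Ttf1 knockout and 5.85 ± 1.6 and then 9.09 ± 1.46 in the Zfp622 knockout.

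Seen by host, the members called in knockout morulae changed by other amounts than their host genes, though the differences were not tested. Rpl23 was at 1869 ± 136 and 1703 ± 162 CPM against 1508 ± 59.3 (log2 fold change 0.32 and 0.19), where Snora21 had 0.89 and 1.02. Zbed3 rose from 0.669 ± 0.281 to 2.18 ± 0.535 CPM in the Ttf1 knockout (1.68, SE 0.35), where Snora47 had 3.32. Rpl17 was higher in the Zfp622 knockout by 0.28, where Snord58b had 1.59. Across the 17 tested pairs, 10 had the sign of the host in each knockout. Pearson's r over these pairs was 0.58 for Ttf1 and 0.23 for Zfp622, and without Snora47 it was -0.14 and -0.02 over 16 pairs. Rpl3 fell in both knockouts (-0.48 and -0.33), while Snord43 in its intron did not pass (0.37 and -0.11).

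The proteins that build and carry these particles showed no common direction in knockout morulae, where over all genes 21.3% were higher and 17.9% lower in the Ttf1 knockout and 15.6% and 13.5% in the Zfp622 knockout. Of 8 proteins of H/ACA particles and their assembly, 2 were higher and 1 lower in the Ttf1 knockout and 2 higher and 2 lower in the Zfp622 knockout, with Naf1, an early assembly factor, at 0.69 and 0.58 and Shq1, a chaperone of dyskerin, at -0.68 and -0.37. Of 11 tested proteins of C/D particles and their assembly, 3 were higher and 4 lower, and 3 and 3. Among them the assembly factors Nufip1 (-0.47 and -0.43) and Znhit6 (0.50 and 0.46) went opposite ways, and Snu13, the protein that binds the C and D boxes, was higher (0.36 and 0.22). At L2C the only one past the threshold was Znhit6, lower in the Ttf1 knockout (-0.33, adjusted p = 0.0483), and in the Zfp622 knockout 0 of the genes of any list passed. The medians of these lists lay between -0.08 and 0.09 at morula, against 0.04 (Ttf1) and 0.03 (Zfp622) for all genes.

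Genes of the Cajal body, of capping and of transport likewise split, with 4 of 20 higher and 6 lower in each knockout at morula, and these counts, like those below, are to be read against the same shares over all genes. Coil, the scaffold of the Cajal body, was lower (-0.54 and -0.49), Wrap53, which brings RNAs to it, was higher (0.58 and 0.68), and the cap-binding genes Ncbp1 (-0.47 and -0.50) and Ncbp2 (0.56 and 0.41) went opposite ways. Of 28 genes of release and trimming from introns, 7 were higher and 8 lower in the Ttf1 knockout and 3 and 5 in the Zfp622 knockout. The exonuclease gene Xrn2 (-0.59 and -0.46) and Ssb (-0.72 and -0.49), whose product binds ends of new RNAs, were lower, and the exosome cofactor C1d was higher (0.94 and 0.77). Noncoding hosts had 7 of 18 higher and 3 lower, and 3 and 1, with Snhg15 (0.80 and 0.73) and Gas5 (0.49 and 0.37) higher and Snhg11 (-1.36 and -1.04) lower. Of 7 other short RNAs without a poly(A) tail that were tested, 3 were higher and 0 lower in each knockout, among them Rn7s2, a signal recognition particle RNA gene (2.31 and 2.00), and Rprl3, an RNase P RNA gene copy (1.43 and 1.44), both of which have near-identical copies.

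Over all 24 libraries the members whose levels ran most like Snora57 were Snora78 (Pearson's r 0.75 of log2 levels), Snora21 (0.73) and Snord17, Snord42b and Snord13 (0.65 each). Snora57 also varied within groups, and the libraries with its lowest and highest level, Ttf1 knockout L2C library 2 (7.12 CPM) and Zfp622 knockout morula library 4 (28.2), come from different groups. Snora31 (405 counts) and Snord92 (393), the other members among the 10 most counted, did not pass in any comparison, and at the wild-type stages Snora31 was closest (0.61, SE 0.30, adjusted p = 0.0621).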

How the data were processed

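Per the labels' protocols, RNA of 10 embryos per library was primed with oligo-dT, copied with template switching and sequenced as read pairs of 150 bases. The deposited values are counts of read pairs per gene. Reads were aligned with HISAT2 2.2.1, per the submitters' processing notes, and counted over exons with featureCounts 2.0.1 against Ensembl release 99 on GRCm38, without strand, multi-mapping pairs or pairs touching exons of several genes, per the file headers. A pair reaching from a member into a host exon is therefore not counted, and a repeated member may be undercounted. Total counts per library and their ranges are given in the text.

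Groups were taken from sample titles, because the genotype field of Zfp622 libraries gives a gene number that rises from library to library. Of 55471 gene identifiers 55144 had a symbol, and all 40 members had the same coordinates in GENCODE M21, which gave hosts and sequences. Comparisons used edgeR 4.0.16 in R 4.3.3: filterByExpr with the groups (minimum count 10), TMM, robust quasi-likelihood fits and Benjamini-Hochberg adjustment over all genes kept. Comparisons within a stage used its 12 libraries, and those across stages all 24. An SE is the log2 fold change divided by the root of its F statistic, with a prior count of 0.125. The counting intervals of ratios are exact binomial intervals at 95%.

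The members and the gene lists were chosen with earlier results of these data known. Named are both targets, the 10 most counted members, members past the threshold, all Cajal body members, those nearest the count threshold, hosts of named members, up to 4 genes per list and the members most like Snora57. Alternatives were DESeq2 1.42.0, other scalings, no filter, a fit that is not robust, a replicate block, other library sets, other count thresholds, a fold threshold and omission of overlapping members. The fit was tested on simulated data. Libraries were not treated as paired by replicate number. Correlations of same-numbered libraries ran from -0.358 to 0.225, which cannot show whether such libraries shared a batch. No libraries were duplicates: chi-square per degree of freedom between replicates was at least 6.5. P-values measure the spread between pools of embryos, and intervals cover counting error only. Sequences on chromosome 18, and some other sequences and host results, are not reported here.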

Additional observations from a re-analysis of the deposited data

Results flagged for a closer look

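Among 114 groups of 4 libraries (19 named members in 6 groups), 13 held a library far from the other 3. The limit used gives about 1 in 20, or 5.7, for normally distributed values. Levels built on few counts are not such values, so 5.7 is not a chance expectation for these groups. In wild-type L2C, library 3 stood high for Snora57 (15.4 CPM, the others 13.8 to 14), for Snord72 (0.522, the others 0.132 to 0.158) and for Snord70 (0.597, the others 0.132 to 0.158). Wild-type L2C library 1 stood high for Scarna2 (0.286 CPM) and at 0 for Snora41, both on very few counts. In wild-type morulae, library 1 was high for Snord118 (10.9 CPM, the others 5.79 to 6.26) and low for Snora41 (0.419, the others 1.3 to 1.35), and library 3 was high for Snora31 (2.13, the others 1.22 to 1.34). In Ttf1 knockout morulae, library 1 was high for Snora47 (3.02 CPM, the others 0.869 to 1.04), library 2 for Snord43 (2.25, the others 2.03 to 2.06) and library 3 for Snora78 (4.15, the others 2.69 to 2.86). The counts of Snord43 in these libraries were 26, 26, 25 and 26. In the Zfp622 knockout, morula library 4 was high for Snord58b (3.39 CPM, the others 1.77 to 2.02) and L2C library 4 for Snora47 (1.49, the others 1.21 to 1.25).

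Knockout effects that differed between the stages by the test of the difference were flagged as well. On the log2 scale, morula minus L2C, the Ttf1 effect differed for Snord104 by 1.48, for Snora57 by 1.16, for Snora21 by 1.34 and for Snora47 by 2.48. The Zfp622 effect differed for Snord104 by 1.37 and for Snora21 by 1.39. The effects of both knockouts were taken against the same wild-type libraries, so they are not independent.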

How the results depend on the processing

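No call was reversed under any alternative run. Of the counts of members called, that for Ttf1 knockout L2C (1, Snora57) was 0 without the wild-type libraries that carry a second index number, 0 with a required change of 1 on the log2 scale, and 0 among members without other overlap, since Snora57 overlaps Lbhd1; leaving out each library in turn gave 0 to 1. For Ttf1 knockout morulae the count of 4 was 2 without those wild-type libraries, where Snord55 (-0.76, adjusted p = 0.227) and Snora21 (0.98, adjusted p = 0.0541) no longer passed. Snord58b in the Zfp622 knockout was also lost there (1.16, adjusted p = 0.104). Without a filter on low counts, members called between the knockouts at morula went from 0 to 1, those called between wild-type stages from 13 to 20 (17 higher and 3 lower), and the Zfp622 effects that differed between stages from 2 to 1. The last count was also 1 without the libraries of a second index and ran from 1 to 3 on leaving out single libraries. Shares of all genes called under these alternatives are not given, so the counts of members called are descriptions only. The Ttf1 effect on Snora21 no longer differed between stages past the threshold with no filter (adjusted p = 0.099) or without the libraries of a second index (0.0721). The cause of these losses was not tested, beyond the fewer libraries used. Scaling by total counts moved the higher calls among all genes called from 48.1% to 59.5% (Ttf1 L2C) and, between the knockouts, from 50% to 75% at L2C and from 55.9% to 40.7% at morula, with the same counts of members called. The replicate number as a block left the counts of members called at 1, 0, 4 and 3 (Ttf1 L2C, Zfp622 L2C, Ttf1 morula, Zfp622 morula) and at 13 between stages. Whether the numbers pair the libraries is not known. At these depths 25 members have under 10 counts per library on average, so that moderate changes in them were not detectable.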

Other observations

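The 78 other snoRNA and Cajal body genes with 50 or more counts, which carry clone-like or other symbols, and the miRNA genes with as many counts were compared by the same fits. Between the wild-type stages 16 of 29 tested other snoRNA genes rose and 8 fell, with a median log2 fold change of 1.25, where 37.9% of all genes rose and 46.1% fell. Of 57 tested miRNA genes 45 fell and 6 rose, with a median of -3.62. The fits at L2C kept 45 miRNA genes and those at morula 22, and of the other snoRNA genes they kept 19 and 20. Genes kept only through the stage where they were high could hardly be tested without differing. The counts of rises and falls between stages in both sets therefore support nothing. In Ttf1 knockout morulae 5 of 20 other snoRNA genes and 7 of 22 miRNA genes were higher and 0 lower in either set, where 21.3% of all genes were higher and 17.9% lower. In Zfp622 knockout morulae 1 and 5 were higher and 0 lower, where the shares over all genes were 15.6% and 13.5%. At L2C 0 of either set passed in either knockout by edgeR. With an unadjusted p under 0.05, 3 other snoRNA genes were higher and 1 lower for Ttf1, and 2 and 0 for Zfp622. Of the miRNA genes 1 was higher and 9 lower for Ttf1, and 2 and 2 for Zfp622. The share of all genes at that unadjusted p is not given, so those counts are descriptions only. DESeq2 counts were not computed for these sets.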
